A study of Mus musculus with 2 samples.

Results

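The genes described here encode BUD31 and 7 further proteins of the spliceosome: the branch site proteins SF3B1, SF3B3, SF3B6 and SF3A2, the Sm protein SNRPD1, the helicase DHX15 and the late factor FAM50A. They were chosen by name from the authors' list of RNA regions recovered with BUD31, as core spliceosome genes that the list names, so that each has at least 1 peak is what chose them and is not a result. They are 8 of the 3258 genes in the list, and 16 of its 16331 peaks carry their names. The list comes from RNA immunoprecipitation sequencing (RIP-seq), in which RNA bound to a protein is pulled down with an antibody and sequenced beside input RNA. Of the 2 libraries, 1 was recovered with an anti-BUD31 antibody and 1 was made from input RNA, 10% of the total. Both came from testicular germ cells of C57BL/6J mice at postnatal day 14, released from the testis by enzymatic digestion. No genetic change or drug treatment is given for either library.

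The spliceosome removes introns from pre-mRNA in 2 chemical steps and is built anew on each intron. BUD31 joins it with the proteins that surround the Prp19 complex, as the machine is activated, and lies close to the catalytic RNA. The SF3 proteins belong to the U2 small nuclear ribonucleoprotein (snRNP) and hold the branch site, Sm proteins form the ring around the small nuclear RNAs, and DHX15 takes the spent complex apart. In the testis at this age the first wave of germ cells is in meiotic prophase, a stage with extensive alternative splicing.

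What was measured is the RNA of these genes, not their proteins. A peak is a stretch of the mm10 genome that the authors called from the 2 libraries, with 1 annotation class and 1 gene name, and it carries no height, fold, read count, p-value or strand. The depth of the libraries is therefore unknown. Since each group is a single library, no difference could be checked in replicates and no p-value is given. The ranges in parentheses after shares of genes are 95% intervals by Wilson's method, for counting error alone, and genes are not replicates. Positions are read as moving in steps of a bin of fixed length per chromosome, 200, 205 or 230 bp on those that hold the 8 genes. The bin was inferred here as the largest length that divides every listed peak width on the chromosome. Among markers of the digested tissue on chromosomes with peaks, 2 of 3 germ cell genes and 4 of 16 genes of somatic or blood cells had a peak. Over all coding genes on such chromosomes 18.8% had one, from 0% on chromosomes 4 and 19 to 48.6% on the X chromosome. The 2 sets of markers lie on different chromosomes, which these counts do not allow for. Mael had 14 peaks, Sycp3 had 1 and Dazl had none, while Kitl of Sertoli cells had 6. A peak is not an expression level, so these counts do not test the labelled cell type.

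Over all protein-coding genes on chromosomes with at least 1 peak, 2799 of 14867 (18.8%) had a peak. All 8 genes lie on chromosomes called well covered here, those where at least 10% of coding genes had one, and there the share was 35.7%, against 2.28% on the other chromosomes with peaks. Among coding genes there with a span between the shortest and the longest of the 8 (6188 to 42333 bp), it was 36.3%. Nothing is read from the 8 of 8 beside these shares, since having a peak chose them.

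The 8 transcripts were covered to very different extents. The share of each gene under its own peaks was 99.95% in Snrpd1, 59.9% in Sf3b1, 40.8% in Sf3b6, 14.9% in Dhx15, 9.70% in Fam50a, 8.26% in Sf3b3, 3.61% in Bud31 and 3.23% in Sf3a2. Their median was 12.3%, and the median over all 2799 coding genes with a peak was 14.0% (interquartile range 4.07% to 40.3%). Snrpd1 and Sf3b1 thus lay above the upper quartile, Sf3b6 lay within 1 bin of it, and Bud31 and Sf3a2 lay below the lower quartile by less than 1 bin. One bin makes up 2.60% of Bud31, 3.23% of Sf3a2 and 3.23% of Fam50a, so Bud31 and Sf3a2, and likewise Fam50a and Sf3b3, differ by less than the resolution of the positions. Of the 8 genes 5 had a single peak, against 31.2% of all coding genes with a peak and 38.5% of those in the same span range. The median span was 10.2 kb in the 8 genes, 37.1 kb in all of these and 21.3 kb in that range. The range therefore does not match the 8 genes in length, and a comparison at equal length was not made.

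**Figure D1:**
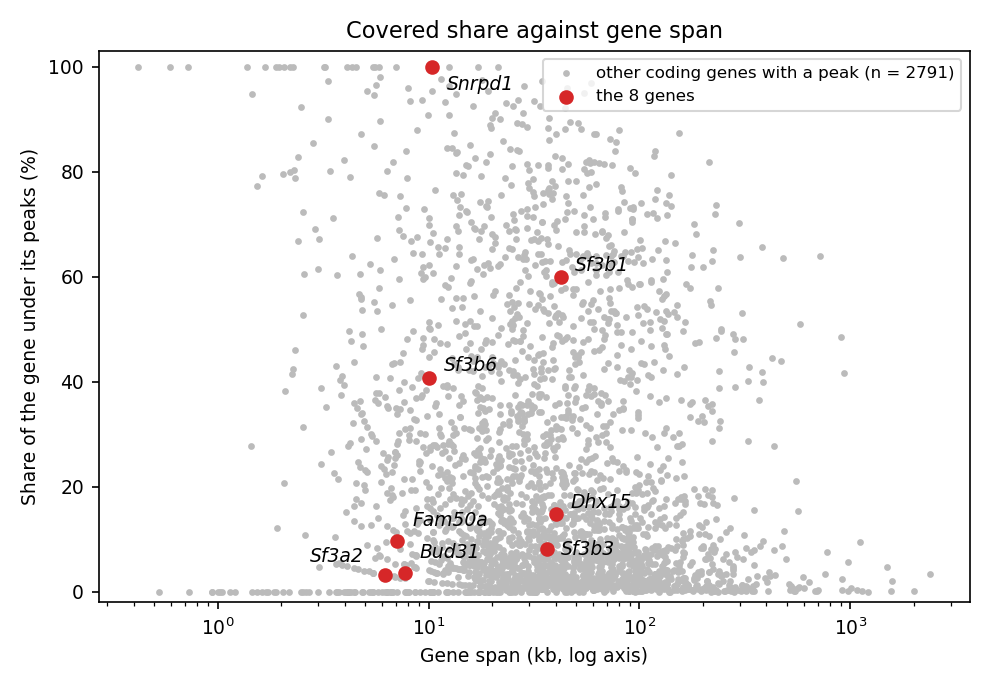
Each point is a coding gene with a peak, with its span in kb on a log x axis and the share of it under its own peaks in percent on the y axis; the 8 genes are in red and the other 2791 in grey. Snrpd1 stands at 99.95%, Sf3b1 at 59.9% and Sf3b6 at 40.8%, and the other 5 lie between 3.23% and 14.9%.

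The sequence over the transcription starts of Bud31 and Sf3b1 is shown as an example. No peak named for either gene reaches its start, which also held for the other genes with a known strand. Each window is from RefSeq on GRCm38.p6 (the mm10 assembly), 300 bases in the direction of transcription, with the 50 transcribed bases from the annotated start in capitals. That of Bud31 is chr5:145140126-145140425 on the plus strand, and the nearest peak named for Bud31 begins 7425 bp after the gene's start. That of Sf3b1 is chr1:55027429-55027728 on the minus strand, and the nearest peak named for Sf3b1 begins 12676 bp after the gene's start. The capitals of this window begin at a start inside the gene's extent, while the distance is counted from the extent's outer end, 55027501.
Bud31: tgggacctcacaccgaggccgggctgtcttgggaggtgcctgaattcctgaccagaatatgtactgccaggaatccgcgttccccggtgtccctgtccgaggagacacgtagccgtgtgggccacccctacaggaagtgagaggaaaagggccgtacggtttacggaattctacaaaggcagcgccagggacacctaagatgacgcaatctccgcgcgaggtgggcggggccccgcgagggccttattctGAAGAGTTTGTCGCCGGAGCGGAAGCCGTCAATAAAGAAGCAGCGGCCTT
Sf3b1: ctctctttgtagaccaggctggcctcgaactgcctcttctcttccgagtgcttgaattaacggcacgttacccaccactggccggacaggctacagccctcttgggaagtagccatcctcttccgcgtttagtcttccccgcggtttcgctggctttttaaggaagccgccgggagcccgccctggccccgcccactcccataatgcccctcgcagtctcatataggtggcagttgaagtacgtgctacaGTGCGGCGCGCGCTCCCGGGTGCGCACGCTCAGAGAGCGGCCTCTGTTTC
GC content is 60.3% and 61.0%, within the interquartile range of 49.0% to 65.0% over 14101 such windows of coding genes.

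Bud31 itself encodes the protein that was pulled down. The gene (gene number 231889) lies on chromosome 5, 145140376 to 145148078, on the plus strand. Its 1 peak, of 400 bp or 2 bins, runs from 145147801 to 145148200 and was annotated as 3′ UTR. It begins 7425 bp after the gene's start, covers the last 278 bp and ends 122 bp beyond. All 400 bp also lie in Ptcd1, a mitochondrial RNA-binding protein gene on the minus strand whose extent shares 701 bp with Bud31, so the genes meet tail to tail. A second peak of 400 bp, at 145147201 to 145147600, lies wholly inside Bud31 too but was named for the 3′ UTR of Ptcd1, and another, of 200 bp, starts 522 bp past the Bud31 end in a Ptcd1 intron. These 3 peaks have consecutive running numbers. Counting every peak that overlaps it, Bud31 has 2 and its covered share is 8.80%. The peak of 200 bp therefore lies in Ptcd1 alone. The extent of Ptcd1 begins at 145147378, so the second peak of 400 bp lies partly in Bud31 alone and partly in both genes. Without strand the list cannot assign the peaks of 400 bp to 1 of the 2 genes where both extend. The other 7425 bp of Bud31, its transcription start included, have no peak named for the gene. On the other side the minus-strand gene Pdap1 starts 350 bp away, head to head with Bud31, with 2 intron peaks of its own, the nearer of which lies 975 bp before the Bud31 start.

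The branch site proteins were represented by 4 genes. Sf3b1, whose protein clamps the branch site helix, had the most peaks of the 8, with 6. The gene (81898) lies on chromosome 1, 54985169 to 55027501, on the minus strand, so transcription runs towards the lower coordinate. In that direction the first peak, of 4715 bp at 55010111 to 55014825, begins 12.7 kb after the start and was annotated as intron. The next, of 1845 bp at 55007856 to 55009700, is also an intron peak. The third is the widest of the 16, 13325 bp or 65 bins at 54994121 to 55007445, and was annotated as exon although it alone takes in 31.5% of the gene. It is wider than 97.8% of all peaks and 98.6% of those on chromosome 1. An intron peak of 2665 bp follows at 54988176 to 54990840, then a 3′ UTR peak of 3485 bp at 54984486 to 54987970 that reaches past the gene's end. The last, of 1025 bp at 54982846 to 54983870, lies wholly beyond the end and was annotated as intergenic.

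Together the 6 peaks form a nearly closed block of 31980 bp, of which 27060 bp (84.6%) are under a peak. Between them lie gaps of 410, 410, 3280, 205 and 615 bp, so 4 of the 5 gaps are 1 to 3 bins wide. Running numbers follow position on every chromosome, and 1 number, inside the gap of 3280 bp, has no peak in the list. The first 12.7 kb of the transcript have none. No other gene in the reference table overlaps any of the 6, and the nearest listed peak of another gene is 42640 bp away. Between that peak and the block 4 running numbers have no peak in the list, and 1 has none on the other side. Whether the Sf3b1 block stands alone is therefore not known from the list.

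Sf3b3, whose protein is the large scaffold beside SF3B1, had 2 intron peaks. The gene (101943) lies on chromosome 8, 110810491 to 110846806, on the minus strand. The first peak in the direction of transcription is a single bin of 200 bp at 110825401 to 110825600, 58.4% of the way along the gene. The second, of 2800 bp at 110811001 to 110813800, takes up 90.9% to 98.6% of the way and stops short of the gene's end. They are 11600 bp apart, and 3 running numbers between them have no peak in the list. The small nucleolar RNA Snord111, hosted inside Sf3b3 at 110838535 to 110838598, lies under neither. Chromosome 8 had the fewest peaks of the well covered chromosomes, with 14.8% of its coding genes carrying one.

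Sf3b6, whose small protein contacts the branch point region through SF3B1, had 1 broad intron peak. The gene (66055) lies on chromosome 12, 4817608 to 4827659, on the plus strand, and the peak of 4100 bp or 20 bins at 4823036 to 4827135 covers the stretch from 5428 to 9527 bp after the start. The gene is 10.1 kb long, so most of its second part is covered and none of the first. No other gene overlaps this peak, and the nearest other listed peaks are 64370 and 52890 bp away. In those intervals 5 and 4 running numbers have no peak in the list.

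Sf3a2, whose protein is a subunit of SF3A, the trimer that joins SF3B in the U2 snRNP, had the shortest coverage of the 8, a single bin of 200 bp annotated as exon. The gene (20222) lies on chromosome 10, 80798735 to 80804922, on the plus strand, and the peak at 80802801 to 80803000 starts 4066 bp from its start. Of all 16331 peaks 12.9% were 1 bin wide, and 2 of the 16 were, this one and the narrower Sf3b3 peak. The Sertoli cell gene Amh begins 317 bp beyond Sf3a2 and had no peak.

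Snrpd1 encodes SmD1, a protein of the Sm ring. Its gene (20641) lies on chromosome 18, 10617796 to 10628230. The 1 peak, of 12800 bp or 64 bins at 10617801 to 10630600, leaves only 5 bp of the gene uncovered and runs on for 2370 bp beyond its upper end. It carries the class intron, which for a peak over a whole gene names only a part of what it spans. Of the 2799 coding genes with a peak, 23 (0.822%) were covered to at least 99%, and 5 of 193 on chromosome 18 were covered to a higher share than Snrpd1. Peaks of at least 10000 bp made up 4.18% of the list, and the Snrpd1 peak and the exon peak of Sf3b1 were the 2 among the 16. The median width on chromosome 18, 3400 bp, was the largest of the well covered chromosomes, and 90.1% of peaks there were narrower than that of Snrpd1. The preceding peak, an intron peak of Esco1 that is 14200 bp wide, ends 8400 bp before it. The strand of Snrpd1 is not in the table used here, so the peak is described in chromosome order only.

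Dhx15 encodes the helicase that releases the lariat intron and the snRNPs after splicing, and it had 3 peaks in 2 separate places. The gene (13204) lies on chromosome 5, 52150203 to 52190546, on the minus strand. Near its beginning, 7346 bp after the start, lies an intron peak of 2600 bp at 52180601 to 52183200, followed after 1800 bp by one of 1200 bp at 52177601 to 52178800. Both were assigned to a transcript whose type is given as ncRNA, NR_104311.1, and not to the coding one. The third peak, of 5600 bp at 52146801 to 52152400, covers the last 2198 bp of the gene and extends 3402 bp past its end. It was annotated as downstream with the coding transcript, and 952 bp of it overlap the long noncoding RNA gene Gm40302 on the plus strand. The 25200 bp between have no peak, although 5 running numbers fall in that interval. Dhx15 was the only one of the 7 genes with a known strand whose covered part lay mostly in the first part of the gene, with 36.6% of it past the midpoint.

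Fam50a encodes a late factor of the spliceosome that is present when exons are joined. The gene (108160) lies on the X chromosome, 74313033 to 74320149, on the plus strand. Its 1 intron peak, of 690 bp or 3 bins at 74319211 to 74319900, lies between 86.8% and 96.5% of the way along the gene. All 690 bp also overlap Gm39520, a long noncoding RNA gene annotated on the minus strand, so the peak cannot be given to 1 of them. The nearby coding genes Atp6ap1 and Plxna3 had 1 peak each, and no running number is missing between those of Fam50a and Plxna3. The X chromosome had the highest share of coding genes with a peak of any, 48.6%.

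**Figure D2:**
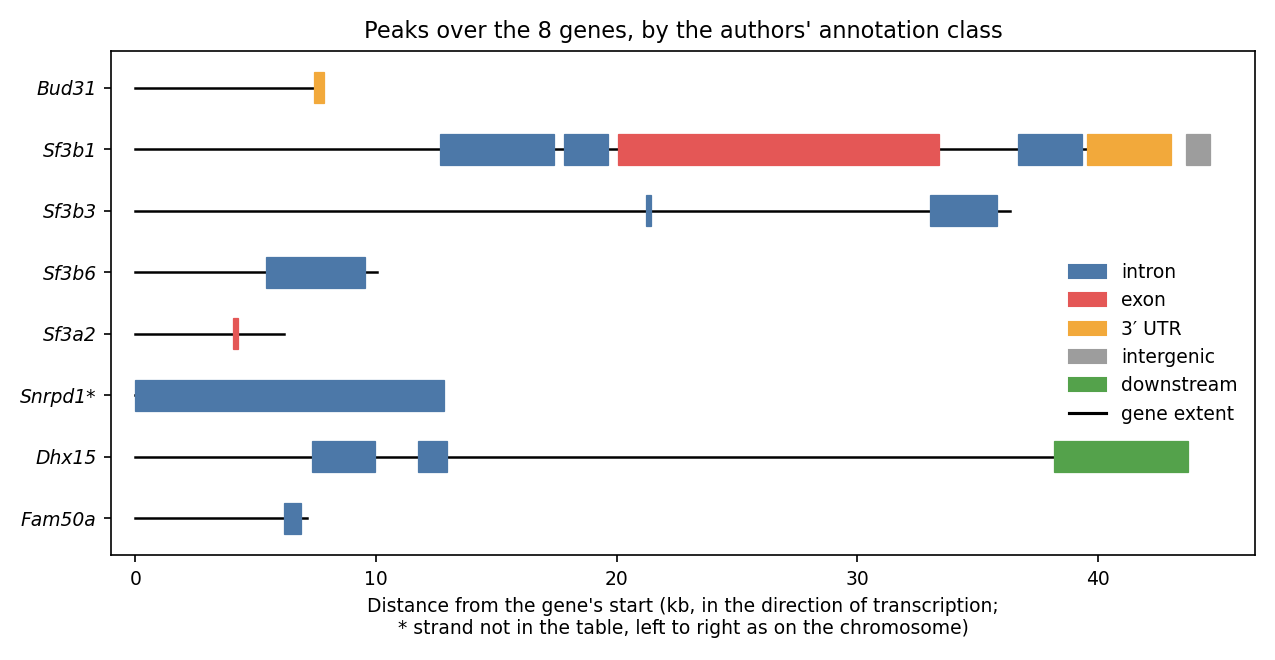
Each row is 1 of the 8 genes, drawn to scale in kb from its start in the direction of transcription (Snrpd1 in chromosome order), with its extent as a black line and its peaks as boxes coloured by the authors' class. Sf3b1 shows a block of 6 boxes that begins 12.7 kb from the start, Snrpd1 is covered end to end, and the boxes of Bud31, Sf3b3, Sf3b6 and Fam50a lie in the second part of the gene.

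By class, 10 of the 16 peaks (62.5%) were annotated as intron, 2 as exon, 2 as 3′ UTR, 1 as intergenic and 1 as downstream. Over all peaks 81.8% were intron, 5.0% exon and 4.79% 3′ UTR. No peak of the 8 genes was annotated as 5′ UTR or upstream, classes that hold 0.643% and 0.196% of the list. The narrowest of the 16 was 200 bp and the widest 13325 bp, and their median of 2632.5 bp compares with 1400 bp over the whole list. The 6 peaks of Sf3b1 are in these counts, so they describe peaks and not genes.

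Where along the gene the peaks lay differed between the 8 genes. Snrpd1 was covered from end to end, so on either strand its first and last 10% are both covered, and its peak runs 2370 bp beyond 1 of its ends. Of the 7 genes with a known strand 6 had more than 50% of their covered bases past the midpoint, and in Bud31, Sf3b3, Sf3b6, Sf3a2 and Fam50a all of them lay there. In Sf3b1 69.7% did. The last 10% of the gene held some coverage in 6 of 7, all but Sf3a2, and the first 10% in 0 of 7. With Snrpd1 these counts are 7 of 8 and 1 of 8. In Bud31 and Fam50a the peak also overlaps another gene and cannot be assigned to 1 of them. Among 1038 coding genes with a peak and with a span in the same range, 51.9% had most of their coverage past the midpoint, 44.3% had some in the last 10% of the gene and 34.6% had some in the first. For 7 genes the intervals are wide, 48.7% to 97.4% for 6 of 7 and 0% to 35.4% for 0 of 7. No test was made of these 8 genes against the rest. Among the 7, peaks of Bud31, Sf3b1 and Dhx15 ran past the annotated 3′ end, as did those of 19.8% of the 1038, and none ran past the start.

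**Figure D3:**
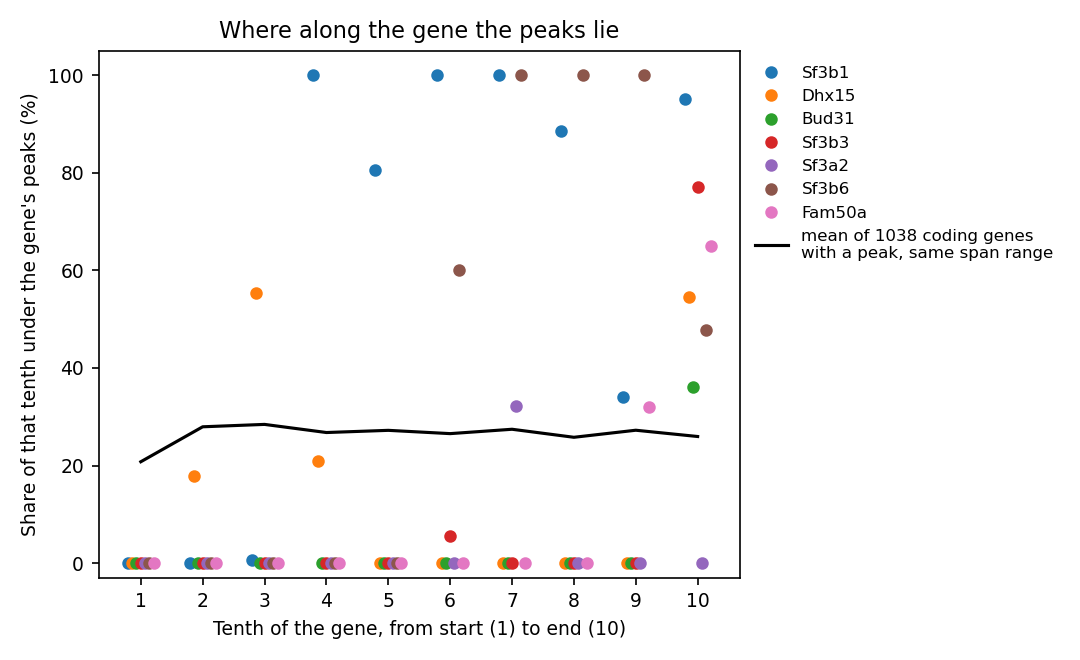
For 7 genes with a known strand, points give the share in percent of each 10% step of the gene, from start to end, that lies under its peaks; the line is the mean of 1038 coding genes with a peak and a span in the same range. All 7 points are at 0 in the first 10% and 6 of 7 are above 0 in the last, while the line runs between 20.8% and 28.4%.

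The start windows shown above for Bud31 and Sf3b1 lie under no peak named for these genes. None of the 7 genes with such a window in the RefSeq table had a peak named for it over the window, against 15.1% (13.1% to 17.4%) of the 1038 genes in the same span range. The interval of 0 of 7 reaches 35.4%, so a lower share than in those genes was not detectable. The peak of Snrpd1, which has no window in the table, lies over its start on either strand, which makes 1 of the 8 genes.

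Around these genes, a list of 99 core spliceosome genes in 14 complexes gives the rest of the pathway. It holds the 8 genes and was drawn up with earlier results of these data known. On chromosomes with peaks lay 74 of the 99, and 18 of them (24.3%, 16.0% to 35.2%) had a peak. On the well covered chromosomes 15 of 32 had one (46.9%, 30.9% to 63.6%). The shares over all coding genes were 18.8% and 35.7%. The 8 genes are in both counts because they have peaks. That choice fixed part of each count, so nothing is read from where the intervals lie beside these shares. Leaving out the 8 genes, 10 of 66 (15.2%) had a peak, and 7 of 24 (29.2%) on the well covered chromosomes. Taking out genes chosen for their peaks lowers these shares by construction, so they are not compared with the background.

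The counts by group that follow cover genes on chromosomes with peaks. They include the genes described peak by peak above, which were chosen for having a peak. That choice fixed part of the counts, so they are not compared with the background share. In the SF3 branch site complex 4 of 9 genes had a peak, and all 4 are among the chosen genes. None of the other 5 had one. Sf3b4, on chromosome 3, was not analysed here. Sf3a1, Sf3a3, Sf3b2 and Phf5a had none but lie on chromosomes 11, 4, 19 and 15, where 0.0622%, 0%, 0% and 3.87% of coding genes had one. Sf3b5, on chromosome 10 like Sf3a2, was the 1 SF3 gene on a well covered chromosome without a peak. Among the genes that recognise the branch site and the 3′ splice site, Sugp1 had 1 peak of 6000 bp annotated as 5′ UTR, which also overlaps Mau2, and Puf60 had 1 intron peak of 600 bp. Sf1, U2af1 and Rbm17, on chromosomes 19, 17 and 2, had none.

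Of 5 Sm genes 3 had a peak, Snrpd1 by choice and 2 of the other 4. Beside Snrpd1, with 99.95% of its length covered, Snrpe had 1 intron peak over 25.6% of the gene and 3 peaks annotated as intergenic, and Snrpb had a single bin of 200 bp. Snrpd3 and Snrpf, both on chromosome 10, had none. The group of Bud31 held a peak in 3 of 5 genes, Bud31 by choice and 2 of the other 4. Beside the 400 bp peak of Bud31 these were an intron peak of 3200 bp in Rbm22, which contacts the catalytic RNA, and one of 3075 bp in Snw1, while Ppie and Aqr on chromosomes 4 and 2 had none.

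Among late factors Fam50a was joined by Sde2, which had 9 peaks over 44.7% of its length, 7 of them in introns. The other 10 of 12 had none: Dhx38, Fam32a, Cdc40, Cactin and Prkrip1 on well covered chromosomes, and Cwc25, Yju2, Slu7, Prpf18 and Dhx8 on thinly covered ones. In the disassembly group Dhx15 had peaks and Tfip11, the partner that activates it, had none, although both lie on chromosome 5. Of 8 genes of the activated complex the X-linked Gpkow and Rbmx2 had 3 peaks each, over 87.4% and 47.3% of the gene, and Srrm2 had 1 in its 3′ UTR. Cwc22, Srrm1, Dhx16 and Rnf113a2 had none, and of these 4 Rnf113a2 alone lies on a well covered chromosome. Peaks of Gpkow, Rbmx2 and Sugp1 lay over the transcription start window, which those of the 7 genes above did not.

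The peak list held no peak for 7 groups: the U1 snRNP proteins (1 gene on chromosomes with peaks), the LSm ring (4), the U2 core (1), the U5 snRNP (7), the U4/U6 proteins and tri-snRNP (4), the B complex (5) and the Prp19 complex itself (6). Of their 28 genes on chromosomes with peaks 7 are on well covered ones, so the counts rest mostly on chromosomes where few genes of any kind had a peak.

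**Figure D4:**
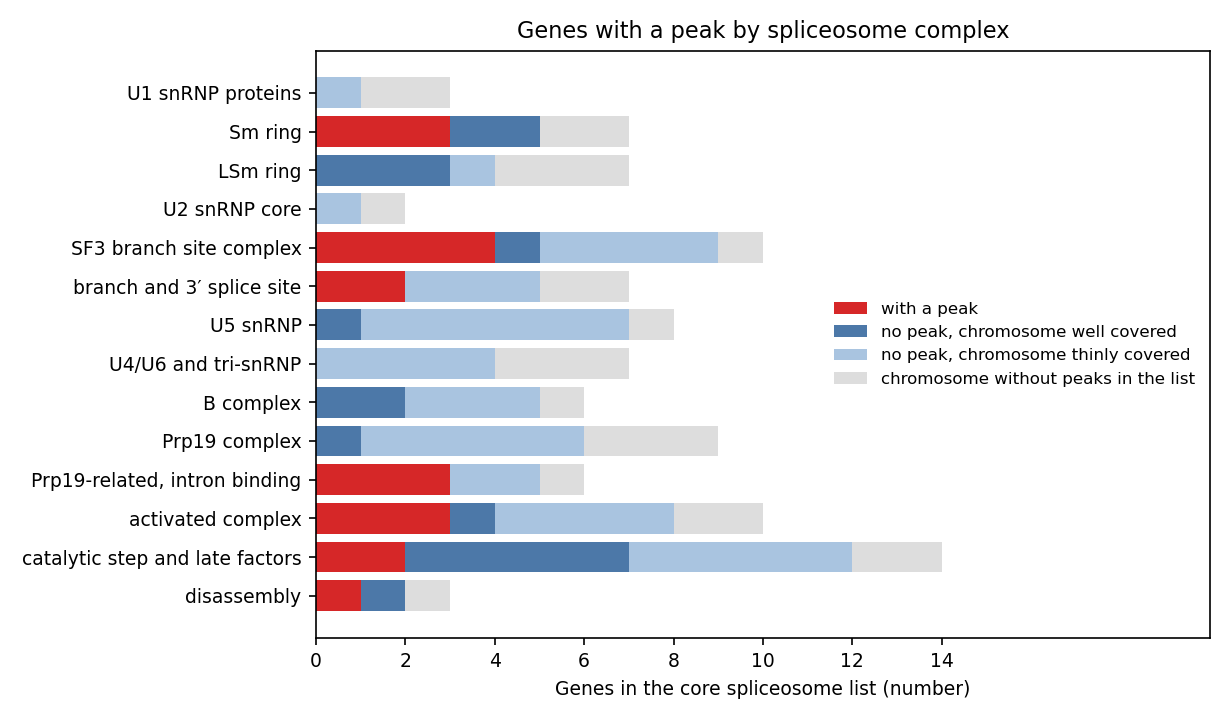
Bars give the number of genes in each group of the core spliceosome list, split into genes with a peak, genes without one on well or thinly covered chromosomes, and genes on chromosomes for which the list has no peak. In the SF3 branch site complex 4 genes, all chosen for having a peak, had one and 1 gene on a well covered chromosome had none. Of the 99 genes 25 are on chromosomes without a peak in the list.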

How the data were processed

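Testicular germ cells of C57BL/6J mice at postnatal day 14 gave 1 anti-BUD31 library and 1 input library, told apart by their titles. The submitters' processing notes name TopHat2 2.0.13 and the mm10 build. The deposited file is 1 annotated peak list that gives, per the file headers, each peak's running number, position, class, transcript and gene. Of the peak caller, its threshold, the use of the input, the annotation release and the treatment of reads with several matches, none is given in the sources used here. Running numbers reach 65288 for 16331 peaks, so the list is part of a longer numbered set. A gene described as without a peak has none in the list, and whether the longer set held one is not known.

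A peak was counted for the gene that the authors' annotation gives it, in any class. Gene numbers were matched to a RefSeq table of GRCm38.p6, the mm10 assembly, for 3216 of 3258 genes. Covered length is the overlap of a gene's peaks with its extent in that table. Strand and start windows come from a RefSeq window table that held 7 of the 8 genes. No genome sequence was used, so peak sequences are not shown. Chromosomes for which the list has no peak (6) were not analysed here.

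The genes, the list of 99 spliceosome genes and the comparisons were chosen with earlier results of these data known. By the rule for naming, the 8 genes are described peak by peak, with every list gene that has a peak, genes without one in the same groups and genes that overlap a peak. Some genes that the rule would name are not reported here. The interval code was tested on simulated data. Alternatives were peaks inside genes, the wider peaks of each chromosome (its median width or more), overlap with the table of at least 1 bp or of at least 50% of the peak, and well covered chromosomes. Python 3.11.15, numpy 2.4.6, pandas 2.3.3, scipy 1.17.1 and matplotlib 3.10.9 were used.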

Additional observations from a re-analysis of the deposited data

How the results depend on the processing

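Of 30 recomputed values 22 stayed within their counting interval, or within 1.5 times for a count, and 8 moved beyond it. For the covered share of a gene the interval counts its bins as trials, 39 for Bud31 and 207 for Sf3b1. Neighbouring bins of 1 peak are not independent, so these intervals do not measure how stable a covered share is. The change of Bud31 from 3.61% to 8.80% is counted as staying within its interval. Keeping only the wider peaks of each chromosome (its median width or more) left 5 of the 8 genes with a peak. Bud31, Sf3a2 and Fam50a, whose single peaks are 1 to 3 bins wide, then had a covered share of 0%. The share of all coding genes with a peak became 15.0% in that setting, 17.8% with peaks annotated inside genes and 35.7% on the well covered chromosomes. For the spliceosome list the share was 16.2% (12 of 74) with the wider peaks only. It was 46.9% on the well covered chromosomes, by construction on fewer genes (32). When every overlapping peak was counted, the covered share of Bud31 was 8.80% instead of 3.61%, through the peak named for Ptcd1. No paired analysis was possible because there was 1 library per group and no test. Depth is unknown, and the bin length limits every position.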
